A study of Mus musculus with 16 samples.

Results

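The effect of losing Ift88 on a moderate folic acid diet was examined across the whole transcriptome of the mouse embryonic head. The comparison takes 8 of the series' 16 libraries: 4 from embryos homozygous for an Ift88 null allele and 4 from wild type embryos, all of families kept for 3 generations on food with 2 ppm folic acid and all collected at embryonic day 8.5. The members are every gene that could be tested, 14514 of the 24421 listed in the files. The other 8 libraries hold the same 2 genotypes on an enriched diet with 10 ppm, and they enter the model as further groups. Tissue reached from the first branchial arch to shortly above the otic vesicle, so each library mixes neural tube, surface ectoderm, mesenchyme, gut endoderm and blood vessels. In such bulk samples, fewer cells of a type and less RNA per cell cannot be told apart. The allele is constitutive, so it acts in all tissues of the embryo. Strain, litter and any pooling of embryos are not given in the sources used here, and the p-values reflect how far these libraries spread, which may be technical.

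Ift88 is part of the intraflagellar transport B complex, the particle that carries cargo along the shaft of cilia. Cells without it build no normal cilium, and vertebrate cells need the cilium to read Hedgehog signals. Shh from the notochord and floor plate patterns the ventral neural tube through the Gli transcription factors. Other programs described below respond to supply: the transcription factor HIF turns on genes for glucose use and vessel growth when oxygen is short, and ATF4 turns on genes for amino acid supply when amino acids are short or proteins misfold.

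Ift88 itself, at chromosome 14 from 57424062 to 57517936 of the mm10 build, was measured in counts-per-million (CPM) of the scaled library total. Wild type replicates 1 to 4 held 19.9, 9.30, 20.9 and 20.7 CPM, and mutants 1 to 4 held 3.35, 6.44, 2.01 and 3.44 CPM. The groups did not overlap, but wild type replicate 2 lay far below the other wild types and mutant 2 above the other mutants. The log2 fold change, mutant against wild type, was -2.24 ± 0.35 (SE; adjusted p = 0.000829). Tests are edgeR's quasi-likelihood test, with p-values adjusted by the Benjamini-Hochberg method over all genes tested. Library totals were 20875382 to 39744994 assigned reads. Counts of Xist and Y-linked genes went against the labelled sex in 3 of the 8 libraries: wild type replicate 2 and mutants 1 and 2, called the sex-discordant libraries below. Sex was therefore left out of the model. On the first principal component of the 8 libraries, which held 52.7% of the variance, wild types lay between -18.7 and -13.6. Mutants 1, 2 and 4 lay between 20.6 and 23.1, and mutant 3 lay at 0.989, between the genotypes.

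Loss of Ift88 moved 1097 genes past an adjusted p of 0.05, which is 7.56% of those tested. Of these, 688 were higher in mutants (4.74%) and 409 lower (2.82%). Changes were mostly modest: the median log2 fold change was 0.60 among the higher genes and -0.65 among the lower, and 337 of the 688 and 182 of the 409 differed by less than 1.5-fold. More than 2-fold changes were seen in 180 higher and 108 lower genes, more than 4-fold in 44 and 32, and more than 8-fold in 16 and 15. Over all genes tested the median log2 fold change was -0.0098. All 4 mutants lay above all 4 wild types in 550 of the 688 higher genes, and below them in 356 of the 409 lower genes; over all genes tested the same separations were found in 8.5% and 7.06%. Without mutant 3 the count was 2083, which held 1057 of the 1097. Without any other single library it was between 606 and 750. Leaving out the 3 sex-discordant libraries leaves 3 wild types and 2 mutants, mutant 3 and mutant 4. In that fit the count was 116, all of them among the 1097. Mutant 3 weighs more in that fit than in the main one, and its part in the lower counts was not tested. Of the 154 genes past the threshold that are named here, 110 kept their call whichever 1 library was left out. Without the 3 sex-discordant libraries 103 lost it, and none changed direction in any alternative.

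**Figure D1:**
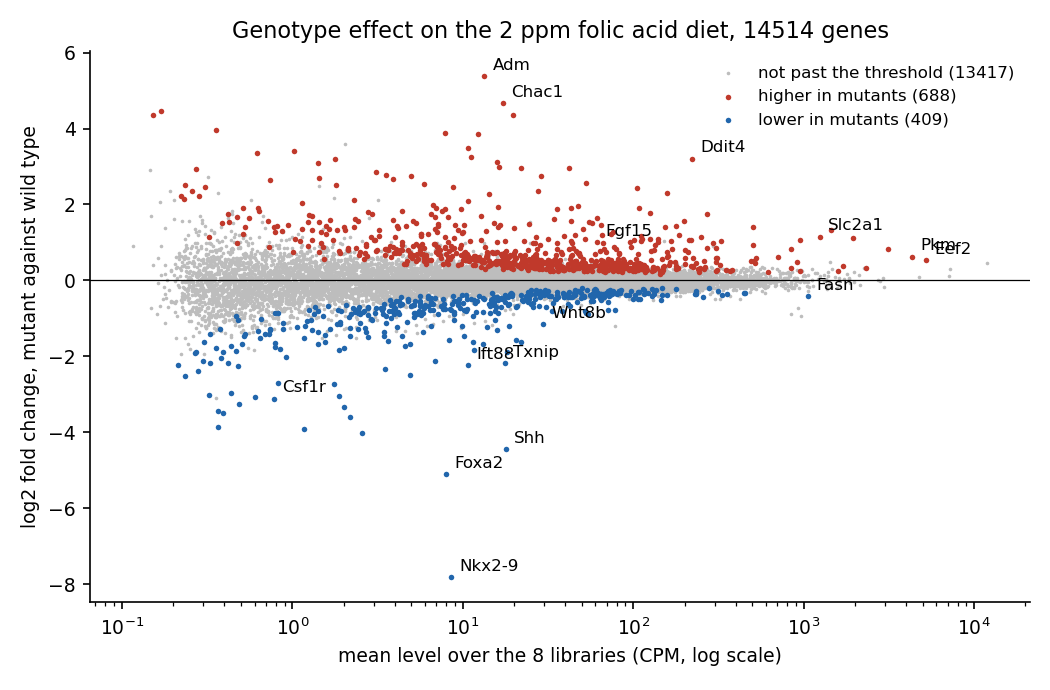
Each point is a gene. The x axis gives its mean level over the 8 libraries (CPM, log scale) and the y axis the log2 fold change of mutants against wild types. The 688 genes higher in mutants are red, the 409 lower genes blue and the 13417 others grey. Adm and Chac1 are among the largest rises and Nkx2-9, Foxa2 and Shh among the largest falls, and among the most abundant genes the changes past the threshold are small.

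The share past the threshold depended on abundance. It was 4.54% among genes below 1 CPM, rose to 11.1% between 3 and 10 CPM and was 5.90% at 100 CPM or more. The median standard error fell over the same range from 0.39 to 0.088 on the log2 scale. The median size of a change past the threshold fell with it, from 1.79 to 0.39. Among genes at 100 CPM or more, 125 were higher and 31 lower. By chromosome, shares ran from 5.90% on chromosome 1 to 10.2% on chromosome 8, and chromosome 14, which carries Ift88, had 8.02%. Of the 1097 genes, 235 belonged to at least 1 of 87 lists of pathways, tissues and cell types, and 862 to none of them. A gene can be on several lists, so their counts and levels are not separate from each other. The plot of list shares gives the counts of 36 of these lists.

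**Figure D2:**
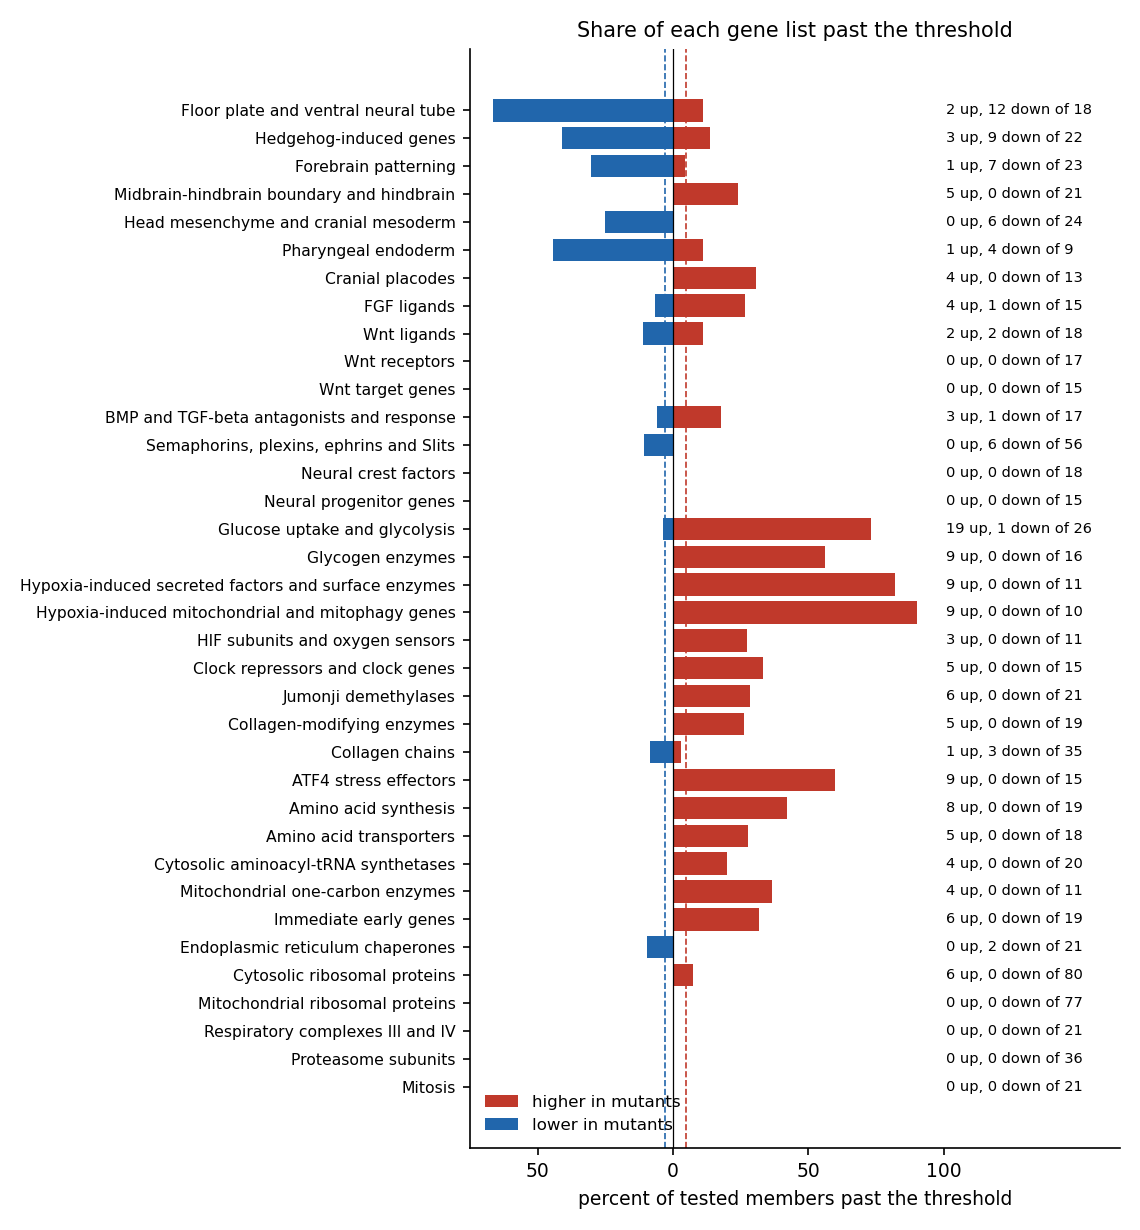
Bars give the percent of each list's tested members that were higher in mutants (red, to the right) or lower (blue, to the left) at an adjusted p of 0.05, with the counts at the right. Dashed lines mark the shares over all genes tested, 4.74% higher and 2.82% lower. Oxygen, glucose and ATF4 lists extend to the right, ventral and pharyngeal lists to the left, and the Wnt receptor, neural crest, mitosis and proteasome lists are empty.

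Most genes of the ventral neural tube and several direct readouts of Hedgehog signalling fell. Of the 18 genes tested of the floor plate and ventral neural tube, 12 fell, 2 rose and 4 did not pass, with a median log2 fold change of -1.24. Of 22 Hedgehog-induced genes, 9 fell and 3 rose, with a median of -0.32. Shh, the ligand of the floor plate, stood at 33.1, 34.1, 33.9 and 35.3 CPM in wild types 1 to 4 and at 1.40, 0.902, 2.18 and 1.72 CPM in mutants 1 to 4, a 21.6-fold fall. Foxa2, the factor that specifies the floor plate, went from 13.7, 17.8, 15.6 and 14.5 to 0.307, 0.369, 0.544 and 0.560 CPM (-5.09 ± 0.19, adjusted p = 1.65e-11). In both genes all mutants, mutant 3 included, were far below the wild types; for Shh mutant 3 was the highest of the 4. Foxa1, the paralog of Foxa2, went from 11.2, 10.6, 12.7 and 9.95 to 2.87, 2.05, 2.43 and 2.92 CPM (-2.11 ± 0.21, adjusted p = 1.22e-05). Nkx2-9 (-7.82 ± 0.29), a homeobox gene next to the floor plate, was at 0 in mutant 1 and at most at 0.123 CPM in the other mutants, against at least 14.7 CPM in wild types. The ventral progenitor factors Nkx2-2 (-3.03 ± 0.26) and Nkx6-1 (-1.19 ± 0.15) fell by smaller amounts. Olig2 (0.62 ± 0.17, adjusted p = 0.0331) and Olig1 (1.10 ± 0.30, adjusted p = 0.0343), factors of motor neuron and oligodendrocyte precursors on the same list, rose; they were picked out after their values were seen. Both calls were lost in 6 of 8 fits that leave out 1 library, at adjusted p up to 0.125 for Olig1 and 0.111 for Olig2.

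Within the Hedgehog pathway the calls were mostly of response genes. Gli1, the activator that serves as a readout of the pathway, went from 26.6, 27.9, 36.9 and 31.6 CPM in wild types to 10.4, 9.59, 9.57 and 12.2 CPM in mutants (-1.56 ± 0.27, adjusted p = 0.00173). The 4 mutants were close to each other and below all wild types. Ptch1, the main receptor, fell by a smaller amount (-0.50 ± 0.13, adjusted p = 0.0221). Gli1 was the 1 of 12 signal transducers to pass; those that did not included Gli2 (0.14), Gli3 (-0.10), Sufu (-0.15) and Kif7 (-0.24). Among the alternatives Sufu passed as lower by DESeq2 only (adjusted p = 0.0332). Of the receptors and co-receptors, 7 of 9 did not pass, with Smo at -0.070 and Gas1 at -0.087. When the sex-discordant libraries were left out, 8 floor plate and ventral genes and 7 Hedgehog-induced genes passed as lower. Ptch1 missed the threshold in 5 of 8 fits without 1 library, at adjusted p up to 0.0676, and the rises among Hedgehog-induced genes numbered 0 to 5.

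Among patterning genes of the neural tube, the calls were mostly falls in forebrain genes and rises in midbrain and hindbrain genes, and most genes of both lists did not pass. Of 23 forebrain genes, 7 fell and 1 rose; of 21 genes of the midbrain-hindbrain boundary and hindbrain, none fell and 5 rose. Wnt8b, a Wnt ligand of the medial forebrain, was at 38.4, 44.5, 41.7 and 38.6 CPM in wild types and 19.3, 20.003, 15.7 and 19.04 CPM in mutants, the lowest being mutant 3. Emx2 (-1.21 ± 0.12) and Emx1 (-1.36 ± 0.20), homeobox factors of the dorsal telencephalon, fell with it, as did Nkx2-1 of the ventral forebrain (-1.83 ± 0.34) and Lhx2 of the eye field and cortex (-0.78 ± 0.21). Barhl1, a homeobox gene of the diencephalon and hindbrain, rose (0.95 ± 0.22, adjusted p = 0.0121). At the other end Fgf15, an FGF ligand of the midbrain and hindbrain, rose from 37.5, 48.2, 38.2 and 38.4 to 91.1, 93.8, 51.2 and 90.9 CPM (1.01 ± 0.17, adjusted p = 0.00129), with mutant 3 just above the highest wild type. Pax2 (0.74 ± 0.15) and Pax8 (0.61 ± 0.15), paired-box factors of the boundary and the otic region, and the POU factor Pou3f1 (0.44 ± 0.092) rose too. Of 24 dorsal and intermediate neural tube genes, 1 rose, Irx3 of intermediate progenitors (0.46 ± 0.088), and 2 fell, the roof plate factor Lmx1a (-0.82 ± 0.16) and the dorsal progenitor factor Msx3 (-0.86 ± 0.25). None of 18 neural crest factors or 15 neural progenitor genes passed; without mutant 3, 3 progenitor genes passed as higher. All counts of these lists are to be read against 4.74% higher and 2.82% lower over all genes tested. Beside those shares, the dorsal rise and the lack of crest and progenitor calls do not stand out. With 1 library left out the forebrain falls numbered 4 to 6 and the midbrain and hindbrain rises 4 to 7, and the calls of Lhx2, Pax8, Msx3 and Barhl1 were lost in 1 to 7 of 8 fits, at adjusted p up to 0.142. With the sex-discordant libraries removed, 3 forebrain genes fell and no midbrain or hindbrain gene passed.

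Among secreted signals, FGF and Wnt ligands changed in both directions. Of 15 FGF ligands, 4 rose and 1 fell. Fgf8, the signal of the boundary and of the anterior neural ridge, was at 13.4, 15.7, 17.6 and 15.7 CPM in wild types and 25.995, 25.1, 17.7 and 29.5 CPM in mutants, so that mutant 3 stood at the top of the wild type range. Fgf11, an FGF that is kept inside the cell, rose by 1.76 ± 0.35 and Fgf23, a circulating FGF hormone, was at most at 0.0746 CPM in wild types and at 0.512, 0.779, 0.0859 and 1.36 CPM in mutants. Fgf10 of the mesenchyme fell (-0.86 ± 0.14). Of 18 FGF receptors and feedback genes 1 passed, the FGF-induced factor Etv4 (0.62 ± 0.14); without mutant 3 it was 9, all higher. Of 18 Wnt ligands, Wnt8b and Wnt7b (-0.81 ± 0.12) fell, and Wnt5a (0.33 ± 0.072) and Wnt9b (0.75 ± 0.22) rose. Of the secreted Wnt antagonists, Dkk2 (-2.33 ± 0.48) and Draxin (-0.79 ± 0.20) fell and Sfrp2 (0.47 ± 0.10) rose. No Wnt receptor of 17 and no Wnt target gene of 15 passed, against a background of 7.56% of all genes; without mutant 3, 3 receptors and 1 target gene passed as higher. Of the BMP and TGF-beta ligands, Tgfb2 (-1.04 ± 0.16) and Bmp7 (-0.44 ± 0.089) fell. Their antagonists and response genes included 3 rises, among them the BMP antagonist Nog (0.74 ± 0.19) and the inhibitory Smad6 (0.54 ± 0.14), and 1 fall, in Id4 (-1.20 ± 0.23). Of 56 semaphorin, plexin, ephrin and Slit genes, which guide axons and cells, 6 fell and none rose, led by Slit1 (-1.30 ± 0.23), a repellent of the midline, and Sema6a (-0.58 ± 0.11). These 6 falls became 2 to 5 with 1 library left out, and without mutant 3 there were 5 falls and 5 rises. The 2 falls of BMP and TGF-beta ligands became 2 to 4, the 3 BMP response rises 1 to 6, and the calls of Wnt9b, Smad6, Draxin and Nog were lost in 4 to 6 of 8 fits, at adjusted p up to 0.146. In the fit lacking the sex-discordant libraries, no FGF ligand, guidance gene or Wnt antagonist fell or rose past the threshold.

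In the tissues around the neural tube, some mesenchymal and endodermal factors fell and some placode genes rose, and most mesenchyme and placode genes tested did not pass. Of 24 genes of head mesenchyme and cranial mesoderm, 6 fell and none rose. The list overlaps others, and Foxl1 is also counted among the Hedgehog-induced genes. Foxl1, a Hedgehog-responsive forkhead gene, fell from 3.17, 4.16, 3.45 and 5.37 to 0.239, 0.451, 0.229 and 0.440 CPM, and the related Foxf2 fell by 5.61-fold and Foxc2 by 1.802-fold. Tbx1, a T-box factor of the pharyngeal arches, fell from 5.72, 4.26, 6.38 and 5.77 to 3.38, 2.38, 4.50 and 1.56 CPM (-0.89 ± 0.24, adjusted p = 0.0313), with mutant 3 inside the wild type range. The myogenic factor Myf5 (-1.91 ± 0.46) and the thyroid and palate factor Foxe1 (-2.17 ± 0.59) fell from low levels, at most 0.597 and 1.39 CPM in wild types. Of 9 tested pharyngeal endoderm genes, 4 fell, among them Foxe1 and Tbx1, and 1 rose. The largest fall on this list was that of Foxa2 (-5.09), already reported above with the floor plate genes. Among 13 placode genes 4 rose and none fell, with a median log2 fold change of -0.039. The clearest was Foxe3, a factor of the lens placode, at 0.768, 1.02, 1.09 and 1.92 CPM in wild types and 4.47, 5.49, 3.52 and 4.00 CPM in mutants, with all 4 mutants well above the wild types (1.81 ± 0.27, adjusted p = 0.000489). Krt19, a keratin of simple epithelia, rose by 2.08-fold. Of 19 proneural and early neuron genes 1 passed, Neurog3, an endocrine and neuronal helix-loop-helix factor at most at 1.11 CPM in any of the 8 libraries (-3.48 ± 0.63). Of 5 Hox genes that could be tested out of 39, none passed. The proneural and Hox counts are to be read against the 7.56% of all genes that passed. When 1 library was left out, 4 to 6 head mesenchyme genes, 2 to 4 pharyngeal genes and 2 to 4 placode genes passed, and the calls of Tbx1, Foxe1 and Myf5 were lost in 1 to 6 of 8 fits, at adjusted p up to 0.180. When the sex-discordant libraries were left out, the counts were 3, 2 and 0.

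Genes of the cilium other than Ift88 passed in small numbers in each list, to be read against the 7.56% of all genes that passed. Of 18 subunits of the intraflagellar transport B complex, Ift88 was the 1 that fell, while Hspb11, which encodes the subunit IFT25, went from 6.00, 6.39, 5.62 and 6.39 to 9.91, 11.6, 8.08 and 9.88 CPM (0.69 ± 0.15) and Ift52 rose by 0.33 ± 0.085. Of 16 intraflagellar transport A subunits and ciliary motors, 3 rose: Dync2li1 (0.35 ± 0.10), Wdr34 (0.44 ± 0.12) and Wdr19 (0.39 ± 0.11). Of 33 genes of the transition zone, BBSome and ciliary membrane, 2 rose, Tmem231 (0.47 ± 0.12) and the ciliary GTPase Arl13b (0.31 ± 0.083). Foxj1, the master factor of motile cilia, which is made in the floor plate, fell from 3.12, 3.24, 4.11 and 4.98 to 1.64, 0.902, 1.49 and 2.08 CPM (-1.35 ± 0.23, adjusted p = 0.00186), and mutant 3 fell as far as the others. None of the 7 tested RFX factors and partners of Foxj1 and none of 12 motile cilia genes passed, the nearest being the dynein subunit Dnaic1 at -1.04 ± 0.31 (adjusted p = 0.0512). Dnaic1 passed as lower with limma-voom (adjusted p = 0.0484) and with a replicate block (0.0494), and reached 0.346 in the fit lacking the sex-discordant libraries. With 1 library left out the rises numbered 0 to 4 among transport A genes and motors and 0 to 6 in the transition zone list. Ift52, Dync2li1, Wdr34, Wdr19, Tmem231 and Arl13b lost their calls in 4 to 7 of 8 fits without 1 library, at adjusted p up to 0.124, and none of them passed in the fit lacking the sex-discordant libraries.

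Many genes that respond to low oxygen rose. Of 11 tested secreted factors and surface enzymes of that response, 9 rose and none fell, with a median log2 fold change of 1.20. Of 10 mitochondrial and mitophagy genes, 9 rose, with a median of 1.19. Adm, which encodes the vasodilator adrenomedullin, rose from 0.528, 0.387, 0.803 and 0.697 CPM in wild types 1 to 4 to 32.0, 32.9, 4.84 and 34.4 CPM in mutants 1 to 4. Mutant 3 was above every wild type but far below the other mutants. The same order held for Ndufa4l2, a subunit that replaces its paralog in the respiratory chain, at 1.97, 1.07, 1.75 and 1.54 CPM in wild types and 29.7, 26.3, 11.3 and 24.2 CPM in mutants (3.85 ± 0.33, adjusted p = 2.25e-06). It held also for Bnip3, a receptor that sends mitochondria to autophagy, at 26.8, 39.7, 30.3 and 35.2 and 196, 252, 64.9 and 199 CPM. Cox4i2, a low-oxygen isoform of cytochrome oxidase, rose by 5.85-fold, and Vegfa, which draws in blood vessels, by 2.35-fold. The carbonic anhydrases Car9 (2.04 ± 0.40) and Car12 (1.20 ± 0.31), which buffer acid outside the cell, and the stanniocalcin hormones Stc1 (2.96 ± 0.36) and Stc2 (2.96 ± 0.34) rose as well. With the sex-discordant libraries removed, 3 secreted factors and 6 mitochondrial genes passed. Car12 lost its call in 6 of 8 fits without 1 library, at adjusted p up to 0.0962.

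Of 11 HIF subunits and oxygen sensors 3 rose. The prolyl hydroxylases Egln3 (1.88 ± 0.25) and Egln1 (1.56 ± 0.22), which mark HIF for destruction, and the ubiquitin ligase Siah2 (1.01 ± 0.18) were higher, whereas Hif1a was at -0.34 ± 0.11 (adjusted p = 0.0816), Arnt at 0.12 and Vhl at 0.15. Hif1a passed as lower without mutant 3 (adjusted p = 0.00168), by DESeq2 (0.0418) and with either sex covariate (0.0411 as labelled, 0.0403 as counted), and reached 0.776 in the fit lacking the sex-discordant libraries. Among other oxygen-dependent enzymes, 6 of 21 Jumonji proteins, most of them histone demethylases, rose and none fell, led by Kdm7a (1.02 ± 0.17) and Kdm3a (0.82 ± 0.14). Of 19 collagen-modifying enzymes 5 rose. The prolyl hydroxylase subunit P4ha2 went from 16.8, 21.1, 18.5 and 21.8 to 80.1, 100.4, 39.6 and 83.5 CPM, with P4ha1 at 1.21 ± 0.15, the lysyl hydroxylase Plod2 at 1.16 ± 0.17 and the lysyl oxidase Loxl2 at 1.44 ± 0.15. Of 35 tested collagen chains, 1 rose, Col1a1 (1.45 ± 0.40), and 3 fell, among them Col15a1 (-1.23 ± 0.18) and Col8a2 (-1.25 ± 0.25). Of 15 clock genes 5 rose. Bhlhe40, a repressor induced in low oxygen, went from 1.63, 1.40, 2.13 and 2.09 to 41.1, 47.4, 5.24 and 57.2 CPM. Bhlhe41 (3.48 ± 0.43), the clock repressor Ciart (1.89 ± 0.27) and the clock output factors Dbp (0.96 ± 0.20) and Tef (0.56 ± 0.14) rose too. In the fit lacking the sex-discordant libraries, 3 clock genes, 4 collagen-modifying enzymes and no Jumonji protein passed. With 1 library left out, 4 to 8 Jumonji proteins and 4 to 8 collagen-modifying enzymes passed, and the calls of Tef and Col1a1 were lost in 6 and 4 of 8 fits, at adjusted p up to 0.105.

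Most genes of glucose uptake and glycolysis rose. Of 26 tested, 19 rose and 1 fell, with a median log2 fold change of 0.84. The transporter Slc2a3 went from 956, 791, 894 and 651 CPM in wild types to 2004, 2884, 1259.9 and 2112 CPM in mutants. Aldoa, an aldolase, rose by 2.16-fold (1.11 ± 0.12, adjusted p = 1.96e-05), and the phosphofructokinases Pfkl (0.84 ± 0.078) and Pfkp (2.35 ± 0.28) rose with it. At the end of the pathway Pkm, the pyruvate kinase, went from 3536, 3424, 3250.5 and 3346 to 5267, 5788, 4896 and 5002 CPM and Ldha, which makes lactate, from 2362, 2366, 2100.2 and 2192 to 4052, 4859, 3664 and 3549 CPM. In these last 2 genes mutant 3 was level with mutant 4. The 1 fall was in Pfkfb4 (-0.60 ± 0.12), a kinase and phosphatase that sets the rate of glycolysis, picked out after its value was seen. Of 16 glycogen genes 9 rose and none fell. Pgm2, a phosphoglucomutase, was at 48.7, 53.5, 45.4 and 64.7 CPM in wild types and 299, 322, 126 and 299.8 CPM in mutants, and Ppp1r3c, which targets a phosphatase to glycogen, rose by 8.73-fold. The synthase Gys1 (1.08 ± 0.16) and the phosphorylase Pygl (0.78 ± 0.10) both rose. When the sex-discordant libraries were left out, 10 glycolysis and 3 glycogen genes passed as higher.

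Few mitochondrial energy genes passed. Pdk1, a kinase that shuts pyruvate out of the citric acid cycle, rose from 107, 143, 117 and 129 to 471, 528, 227 and 441 CPM, and so did its target Pdha1 (0.60 ± 0.10). Of the other genes of pyruvate entry and the citric acid cycle, 2 rose, Pdk3 (0.46 ± 0.10) and Pcx (0.24 ± 0.072), and 1 fell, Ogdh (-0.35 ± 0.085). Of 36 genes of respiratory complex I, 1 rose, Ndufv3 (0.77 ± 0.12). None of the 21 genes on the list of complexes III and IV, 18 of ATP synthase or 77 mitochondrial ribosomal proteins passed, against 7.56% of all genes. The cytochrome oxidase isoform Cox4i2, which rose as described above, is not on that list. Genes with the mt- prefix of mitochondrial DNA made up 0% of the counts, so subunits encoded there were not measured. Txnip and its paralog Arrdc4, whose transcription follows glucose, fell. Txnip, an arrestin-like protein that lowers glucose uptake, was at 34.2, 25.1, 22.2 and 34.6 CPM in wild types and 5.43, 4.75, 9.77 and 5.52 CPM in mutants (-2.18 ± 0.45, adjusted p = 0.00612). Arrdc4 was at 30.5, 26.9, 27.2 and 30.3 and 6.25, 5.16, 14.95 and 4.64 CPM (-1.87 ± 0.35, adjusted p = 0.00333). In both, mutant 3 lay between the other mutants and the wild types. The calls of Pcx and Ogdh were lost in 5 and 4 of 8 fits without 1 library, at adjusted p up to 0.164.

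Promoter sequences were available for many of these genes, and short motifs were counted in the 250 bases before the start (RefSeq, build GRCm38.p6, 10893 of the tested genes matched by symbol). The core of the HIF site was searched as ACGTG or GCGTG on both strands. It was found in 56.5% of all promoters matched, in 65.6% of the 497 of higher genes and in 44.3% of the 300 of lower genes. For lower genes past 2-fold the share was 29.2% of 72; in the same 72 the GC box described next was in 45.8% and the GC content was 56.7%. The GC box GGGCGG, searched in the same windows, was found in 60.0% of all, 64.4% of higher and 57.3% of lower genes, and the mean GC content was 60.4%, 61.5% and 59.7%. The E-box CACGTG, which overlaps the HIF core, was in 8.42% of all and in 12.8% of the 133 genes higher by more than 2-fold. The ATF4-type motif TGATGNAA was in 1.90% of all, in 5.26% of those 133, and in 4 of 14 promoters of ATF4 stress effectors. The Gli-type motif GACCACCCA was in 0.165% of all, in 1 of the 300 of lower genes and in none of 12 of Hedgehog-induced genes. By list, the HIF core was in 5 of 8 promoters of hypoxia-induced secreted factors, 5 of 7 of mitochondrial ones and 18 of 25 of glycolysis. It was in 10 of 14 of ATF4 effectors and 11 of 14 of amino acid synthesis. For amino acid transporters it was 6 of 13, for Hedgehog-induced genes 7 of 12 and for floor plate and ventral genes 3 of 11. A match is a description of the letters and not of binding. The sequences of 5 risen genes, chosen after their matches were known, are printed 5′ to 3′ with the matches in capitals. Adm and Ldha show the HIF core (either form on either strand, overlapping in Ldha), Ciart the E-box, and Chac1 and Asns the ATF4-type motif.
Adm, chr7:110627407-110627656, plus strand: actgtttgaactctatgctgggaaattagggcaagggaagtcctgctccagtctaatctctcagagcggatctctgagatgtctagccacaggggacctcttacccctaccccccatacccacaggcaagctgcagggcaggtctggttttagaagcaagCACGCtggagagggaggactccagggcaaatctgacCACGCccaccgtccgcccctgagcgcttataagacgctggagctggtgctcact
Ldha, chr7:46845554-46845803, plus strand: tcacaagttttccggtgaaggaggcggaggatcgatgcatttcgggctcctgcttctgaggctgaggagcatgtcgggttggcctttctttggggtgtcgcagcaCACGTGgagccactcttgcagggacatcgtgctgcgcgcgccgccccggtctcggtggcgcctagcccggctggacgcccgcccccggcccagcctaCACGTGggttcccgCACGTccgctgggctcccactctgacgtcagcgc
Ciart, chr3:95882229-95882478, minus strand: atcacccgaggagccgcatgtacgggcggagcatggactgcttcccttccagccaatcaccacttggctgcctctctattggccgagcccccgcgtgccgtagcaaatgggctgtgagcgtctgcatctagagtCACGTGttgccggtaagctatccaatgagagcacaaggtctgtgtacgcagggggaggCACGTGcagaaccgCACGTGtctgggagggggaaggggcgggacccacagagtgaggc
Chac1, chr2:119350992-119351241, plus strand: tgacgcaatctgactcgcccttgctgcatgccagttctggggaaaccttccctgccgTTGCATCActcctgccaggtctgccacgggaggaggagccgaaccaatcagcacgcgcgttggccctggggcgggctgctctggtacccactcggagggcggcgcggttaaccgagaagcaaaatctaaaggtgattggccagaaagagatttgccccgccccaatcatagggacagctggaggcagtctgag
Asns, chr6:7693210-7693459, minus strand: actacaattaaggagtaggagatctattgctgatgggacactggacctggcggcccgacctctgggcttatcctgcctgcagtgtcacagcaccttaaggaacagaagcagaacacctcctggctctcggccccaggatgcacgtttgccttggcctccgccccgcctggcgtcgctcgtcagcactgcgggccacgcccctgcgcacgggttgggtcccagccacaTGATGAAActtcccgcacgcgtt

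Many genes of amino acid supply and stress controlled by ATF4 rose, with mutant 3 near or below the wild types in several. Of 15 tested ATF4 stress effectors 9 rose and none fell. Chac1, an enzyme that breaks down glutathione, was at 1.87, 1.21, 1.04 and 1.14 CPM in wild types and 39.4, 54.3, 0.917 and 37.8 CPM in mutants, so mutant 3 was below every wild type. Trib3, a pseudokinase that dampens growth signalling, showed the same order, at 2.55, 5.42, 3.26 and 3.48 CPM in wild types and 36.0, 40.9, 2.52 and 37.0 CPM in mutants. Ddit4, an inhibitor of mTORC1 that also responds to low oxygen, rose in all 4 mutants, from 38.0, 40.9, 40.8 and 53.6 to 432, 603, 121 and 448 CPM. Of 18 amino acid transporters 5 rose. Slc7a3, a carrier of cationic amino acids, was at 7.396, 7.46, 6.10 and 5.85 CPM in wild types and 30.4, 29.1, 7.16 and 35.8 CPM in mutants. Slc7a1 (1.02 ± 0.18), Slc7a5 (1.07 ± 0.26) and its partner Slc3a2 (0.75 ± 0.18) rose in the fit over all libraries. Of 19 enzymes of amino acid synthesis 8 rose, among them Asns, the asparagine synthetase, from 94.2, 93.1, 81.8 and 88.9 to 215, 213, 100.5 and 230.04 CPM, and Pycr1 of proline synthesis (1.04 ± 0.17). Of 20 cytosolic aminoacyl-tRNA synthetases 4 rose, by at most 0.52 ± 0.10 in Sars. With limma-voom, 5 in place of 9 ATF4 effectors passed. With the sex-discordant libraries removed, mutants 3 and 4 remained. In that fit 3 effectors, no transporter and no enzyme of amino acid synthesis passed. With 1 library left out the counts were 6 to 10, 3 to 7 and 4 to 9, and those of tRNA synthetases 1 to 8. Slc7a5 and Slc3a2 lost their calls in 5 and 4 of 8 such fits, at adjusted p up to 0.0645, and Chac1 (adjusted p = 0.200) and Trib3 (0.133) lost theirs with limma-voom.

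Of 11 mitochondrial enzymes of one-carbon metabolism, which uses folate, 4 rose and 7 did not pass; the 7 had negative log2 fold changes and the median was -0.061. Shmt2, which moves a carbon unit from serine to folate, was at 193, 192, 176 and 204 CPM in wild types and 381, 412, 255 and 347 CPM in mutants, with mutant 3 between the groups and above every wild type. Mthfd2 (0.81 ± 0.15) and Mthfd1l (0.65 ± 0.092) rose too, and Aldh1l2, at 3.60, 4.12, 4.02 and 4.01 CPM in wild types and 18.2, 9.67, 3.24 and 18.8 CPM in mutants, rose with mutant 3 below every wild type. None of 9 genes of the cytosolic folate cycle passed, with Mthfd1 at -0.053 ± 0.080. The folate receptor Folr1 fell from 5.23, 5.08, 4.30 and 8.53 to 2.12, 2.62, 3.32 and 1.88 CPM (-1.22 ± 0.26, adjusted p = 0.00812). Aldh1l2 missed the threshold with limma-voom (adjusted p = 0.131) and without mutant 1 (0.0582) or mutant 4 (0.0543). With the sex-discordant libraries removed, 2 of the mitochondrial one-carbon enzymes passed as higher. In that fit Aldh1l2 (adjusted p = 0.261), Mthfd2 (0.200) and Folr1 (0.196) lost their calls.

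Genes of growth, stress and protein turnover passed in smaller numbers. Of 80 cytosolic ribosomal proteins 6 rose and none fell, a share of the list near that of all genes. However, 57 had a positive and 23 a negative log2 fold change, with a median of 0.21, against -0.0098 over all genes. Their summed level was 17924 to 19709 CPM in wild types and 20888 to 27078 CPM in mutants. The elongation factor Eef2, the most abundant gene past the threshold, was at 4403, 4281, 3936 and 4567 CPM in wild types and 6245, 7401, 4949.6 and 6217 CPM in mutants (0.53 ± 0.11, adjusted p = 0.00686). Eif4ebp1, a repressor of translation, rose by 2.07-fold and Sesn2, an inhibitor of mTORC1, by 3.10-fold. Of the immediate early genes 6 of 19 rose, led by Ier3 from 1.06, 0.823, 0.756 and 1.219 to 15.7, 21.7, 3.18 and 18.04 CPM, Fosl2 (1.47 ± 0.20) and Atf3 (1.69 ± 0.24). The abundant genes that fell included Fasn, the fatty acid synthase, from 1307, 1057, 1310.5 and 1133 to 892, 785, 1048 and 902 CPM (-0.41 ± 0.10, adjusted p = 0.0231). Hyou1 (-0.34 ± 0.093), a chaperone of the endoplasmic reticulum, and Dbn1 (-0.35 ± 0.068), an actin-binding protein, fell as well. Of 27 genes of cholesterol synthesis 2 passed, both lower, and 26 of 27 had a negative log2 fold change; with 1 library left out 0 to 5 passed as lower. Of 19 tested cyclins and CDK inhibitors 4 rose and none fell, and 2 to 5 rose with 1 library left out. Ccng2 (1.35 ± 0.24) and Cdkn2b (2.36 ± 0.57), which slow the cell cycle, were among the 4. None of 21 mitosis genes and 1 of 32 replication genes passed. None of 36 proteasome subunits passed, and these counts are to be read against the 7.56% of all genes. Whether the cell cycle slowed was not tested. When 1 library was left out, 2 to 12 ribosomal proteins and 4 to 9 immediate early genes passed, and the calls of Fasn, Hyou1 and Cdkn2b were lost in 3 to 7 of 8 fits, at adjusted p up to 0.0970.

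**Figure D3:**
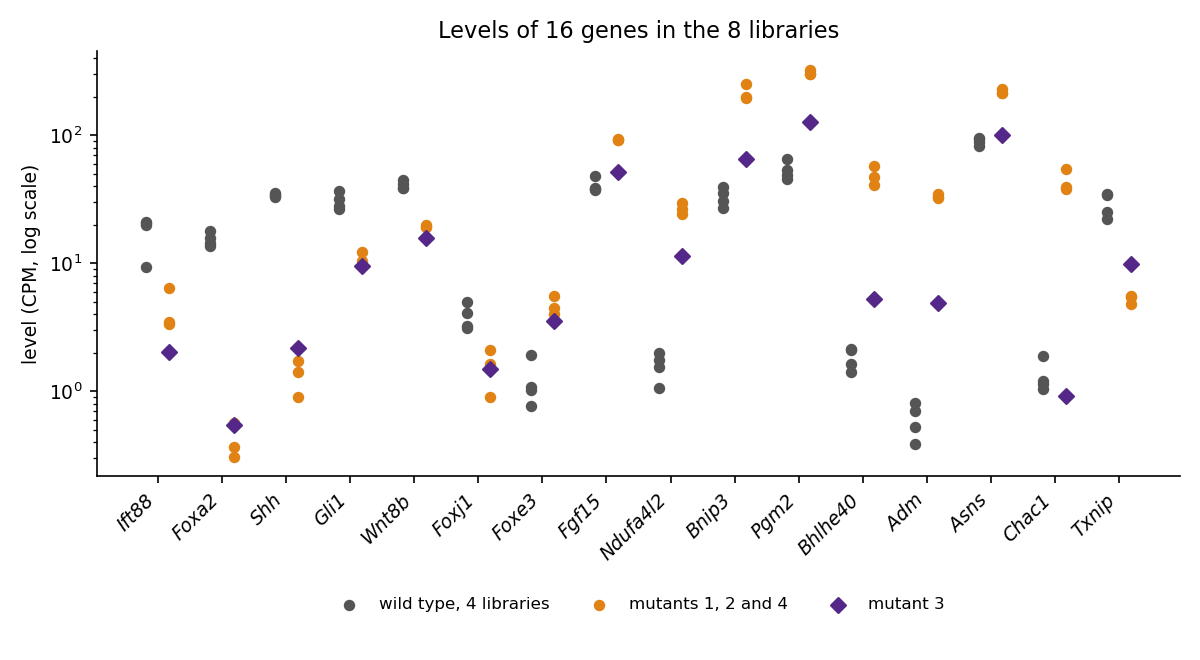
Levels of 16 genes (CPM, log scale) in the 4 wild type libraries (grey), mutants 1, 2 and 4 (orange) and mutant 3 (purple diamond); a library at 0 would not be drawn. Mutant 3 lies with the other mutants for Foxa2, Shh, Gli1, Wnt8b and Foxj1, between the groups for Ndufa4l2, Bnip3, Pgm2, Bhlhe40 and Adm, and below all wild types for Chac1.

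The 4 mutants differed from each other, by amounts that varied between lists. Mutant 3 was the mutant nearest to the wild type mean in 614 of the 688 higher genes (89.2%) and in 237 of the 409 lower genes (57.9%). The median distance from the wild type mean was 0.25 on the log2 scale in mutant 3 for the higher genes, against 0.65 to 0.72 in the others, and -0.48 against -0.67 to -0.64 for the lower genes. Set against the mean distance of the other 3 mutants, mutant 3 covered a median of 39.9% over the higher genes and 67.3% over the lower genes. It covered at least 80% in 56 higher and 164 lower genes. The level of a list in a library was taken as its mean log2 CPM centred over the 8 libraries. By that measure mutant 3 covered 94.1% of the distance of the other mutants for floor plate and ventral genes and 127% for Hedgehog-induced genes. It covered 86.1% for pharyngeal endoderm, a list that also holds Foxa2, and 123% for forebrain genes. It covered 53.6% for hypoxia-induced mitochondrial genes, 40.8% for glycolysis, 39.5% for hypoxia-induced secreted factors, 32.9% for glycogen enzymes and 19.04% for clock genes. For ATF4 stress effectors it covered 5.26%, and for amino acid transporters it lay on the other side of the wild type mean, at -15.4%. Patterning and signal lists with mostly rises had partial shares too. Mutant 3 covered 58.2% for midbrain-hindbrain genes, 55.4% for cranial placodes, 20.7% for FGF ligands and 16.1% for BMP and TGF-beta response genes. The largest shares named here are of lists with mostly falls, so program and direction of change cannot be told apart. These shares describe 1 library and carry no test.

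**Figure D4:**
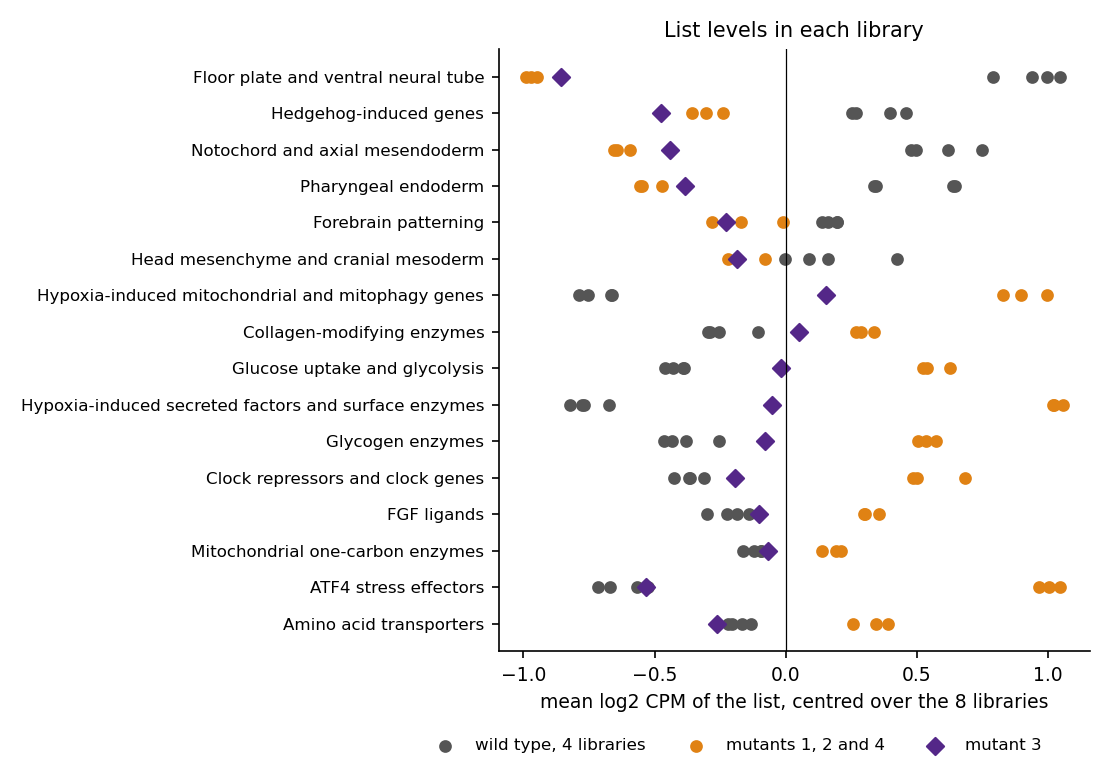
Each row is a gene list and each point a library; the x axis is the mean log2 CPM of the list's tested genes, centred over the 8 libraries. Wild types are grey, mutants 1, 2 and 4 orange, and mutant 3 is the purple diamond, which sits with the other mutants in the ventral rows at the top, between the groups in the oxygen and glucose rows, and within or beside the wild types for ATF4 stress effectors and amino acid transporters.

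Markers of other cell types were set beside these results. All 15 tested erythroid genes had a negative log2 fold change, with a median of -1.03, and 1 passed, the erythropoietin receptor Epor (-0.97 ± 0.27); without mutant 3, 11 of the 15 passed as lower. Their summed level was 2520 to 6651 CPM in wild types and 1272 to 3461 CPM in mutants. Of 20 endothelial genes 4 rose, with Flt1 at 0.83 ± 0.14 and Pecam1 at 0.53 ± 0.13, and 1 fell, Aplnr (-0.48 ± 0.11); their sum was 634 to 746 CPM in wild types and 706 to 790 CPM in mutants. Of 3 tested macrophage genes 2 fell, Csf1r (-3.11 ± 0.64) and Cx3cr1 (-3.06 ± 0.86), and the list summed to 2.88 to 6.64 CPM in wild types and 0.697 to 2.68 CPM in mutants. Of 11 cardiomyocyte genes 1 rose, Gata4, from 0.432, 0.145, 0.0945 and 0.0746 to 3.04, 1.31, 0.974 and 2.08 CPM, and 1 fell, Tbx5 (-1.86 ± 0.45), a count of 0 to 4 with 1 library left out. The 4 endothelial rises numbered 2 to 5. No member of the lists of yolk sac and of trophoblast markers passed. The 11 tested yolk sac genes had a median log2 fold change of 1.16, 9 of them positive, and their level (mean log2 CPM, centred over the 8 libraries) was 1.47 in mutant 2 and 1.58 in mutant 3, -0.909 and -0.612 in mutants 1 and 4, and at most 0.679 in wild types. Summed, they reached 42.2 CPM in mutants and 27.5 CPM in wild types. Calls of Epor, Cx3cr1, Pecam1, Aplnr and Tbx5 were lost in 2 to 7 of 8 fits without 1 library, at adjusted p up to 0.138. Hand1, a factor of heart, arches and extraembryonic tissue, stood at 14.1 CPM in mutant 3 and at most at 0.775 CPM in the other 7 libraries. The head neural tube markers, which check the labelled tissue, summed to 791 to 829 CPM in wild types and 759 to 953 CPM in mutants, against 1.89 to 2.59 and 0.960 to 2.13 CPM for trunk and tail markers. The part of these markers in the results above was not tested.

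The same genes were read in the 8 libraries of the enriched diet, which share the model's estimate of spread and its filter but not the libraries contrasted. In the fit of the 8 moderate diet libraries alone, 1060 genes passed, 884 of them among the 1097. Of the 688 higher genes, 684 had the same direction there, against 74.0% of all genes tested, and 600 (87.2%) passed the threshold, against 13.3% of all genes that were higher on that diet. Of the 409 lower genes, 402 had the same direction and 321 (78.5%) passed, against 14.9%. Of all genes tested, 28.2% passed on the enriched diet. None of the 1097 passed in opposite directions. The 600 are 31.2% of the 1925 genes higher on the enriched diet and the 321 are 14.8% of the 2162 lower. The difference between the 2 genotype effects was tested in the same model, and no gene passed (0% of 14514; 1064, or 7.33%, at an unadjusted p under 0.05; also 0 by DESeq2 and by limma-voom). Txnip, which fell on the moderate diet, was at -0.89 on the enriched diet (adjusted p = 0.129), with an unadjusted p of 0.0503 for the difference. Among the 10 smallest p-values for the difference were Runx1, a blood factor at -1.23 on the moderate and 0.40 on the enriched diet, and Csf1r at -3.11 and 0.22. Icam2, an endothelial adhesion protein, was at 0.42 and -0.14. Others of the 10 passed on the enriched and not on the moderate diet. They were Slc25a29 (-0.30 moderate, -1.10 enriched), Dnlz (-0.061, -0.53), Mall (-0.31, -1.96), Optn (-0.15, 1.05), Rasip1 (-0.074, -0.62) and Commd9 (-0.19, -0.64). None of these differences passed.

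**Figure D5:**
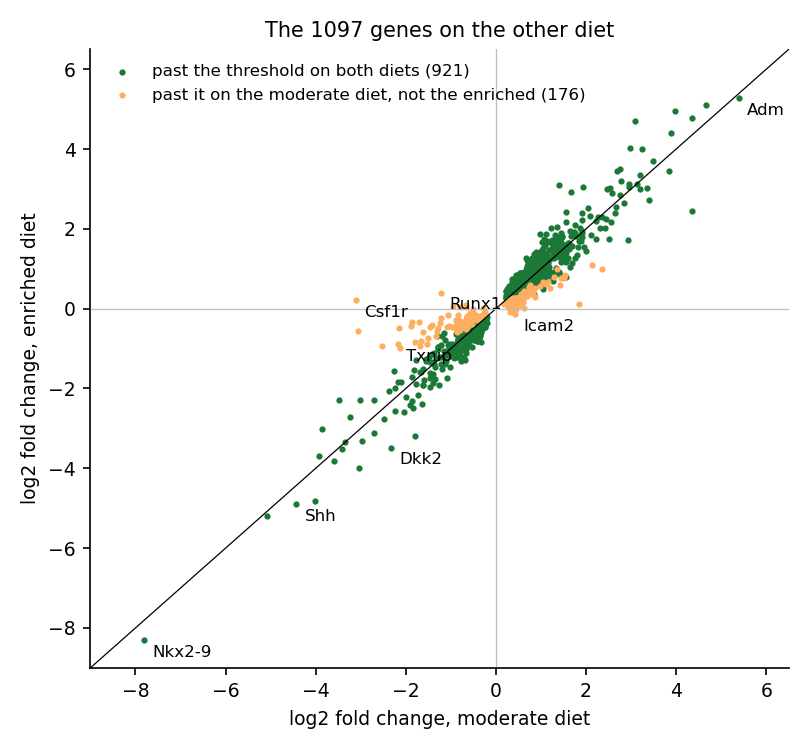
Each point is 1 of the 1097 genes past the threshold on the moderate diet, with its log2 fold change there (x axis) and on the enriched diet (y axis); the line marks equal values. Green genes, 921 in all, passed on both diets and orange genes, 176, passed on the moderate diet and not on the enriched; the genes lie along the line, with Csf1r, Runx1 and Txnip among those off it.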

How the data were processed

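RNA was sequenced from heads of Ift88 mutant and wild type mouse embryos on 2 diets, 4 libraries a group. The deposited values are raw counts of reads per gene, 1 column a library. The submitters' processing notes name FastQC 0.11.5, TopHat2 2.1.1, SAMtools 1.8, HTSeq 0.9.1, DESeq2 1.22.2 and build mm10; the annotation and the counting mode are not given in the sources used here. Libraries were made with a kit that, as named in the labels' protocols, is of a kind that does not mark strand, so overlapping and antisense genes cannot be told apart. Summary lines that name no gene were left out: reads in no feature were 13.7% to 17.0% and ambiguous reads 1.20% to 1.39% over the 16 libraries.

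Genes that reached 10 counts in 4 or more libraries were tested with edgeR 4.0.16 (R 4.3.3): TMM scaling, the quasi-likelihood test over all 16 libraries with a mean per group, and Benjamini-Hochberg adjustment over all genes tested at 0.05. CPM values are TMM-scaled, and the standard error was obtained from the log2 fold change and its F statistic (size over root F). The genotype effects on the 2 diets were compared as a contrast of the same model. Principal components used the 500 most variable genes. List levels and principal components used log2 CPM with a prior count of 2. Replicates differed by more than sampling noise, and each was counted as a separate sample. That spread does not show that they come from separate embryos or litters. Gene positions and classes came from GENCODE vM21 (mm10), in which 14010 tested genes were matched by symbol; promoters are the first start listed for each symbol. The procedure was tested on simulated data.

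Members and lists were chosen with earlier results of these data known. Genes were named by rule: Ift88; per direction, up to 15 with the largest change past the threshold, at least 1 CPM and no overlap of the groups; the 8 most abundant past the threshold per direction; up to 6 of smallest p in each list, or any member of a list of at most 12; and the 10 smallest p for the difference. Predicted genes were passed over, and genes named outside the rule are said to be so. Some genes within it are not reported here. Alternatives were median-of-ratios scaling, DESeq2 1.42.0, limma-voom (limma 3.58.1), other filters, sex as a covariate, a replicate block, the 8 libraries alone, a threshold of 0.1, and leaving out libraries.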

Additional observations from a re-analysis of the deposited data

Results flagged for a closer look

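In each group of 4 libraries, a named gene was singled out where 1 library stood far from the other 3 (Dixon's criterion at 95%). Of 88 groups checked 12 were singled out. The chance rate of about 1 in 20 is for unselected, independent groups. These genes were mostly chosen by their values in the same libraries, so the count cannot be set against that rate. Mutant 3 stood apart in 8 of the 12. It was below the other mutants for Adm, at 4.84 CPM against 32.0 to 34.4, for Vldlr, a lipoprotein receptor, at 21.0 against 104 to 120, for Cox4i2, at 5.21 against 11.6 to 12.01, and for Sncb, a synuclein, at 2.15 against 6.28 to 6.73. It was above them for Dkk2, at 3.15 CPM against 0.287 to 0.581, Txnip, at 9.77 against 4.75 to 5.52, Arrdc4, at 14.95 against 4.64 to 6.25, and the chaperone Hyou1, at 458 against 361 to 377. In each of these 8 genes mutant 3 was on the wild type side of the other mutants. Mutant 2 was above the other mutants for Nkx2-2, at 0.615 CPM against 0.342 to 0.360, and mutant 4 was below them for Nkx2-1, at 3.32 against 5.50 to 5.79. Among wild types, replicate 2 was low for Ift88, at 9.30 CPM against 19.9 to 20.9, and replicate 1 was high for Pabpc1, the poly(A)-binding protein, at 1509 against 1424 to 1438.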

How the results depend on the processing

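The count of 1097 genes (688 higher, 409 lower) stayed within 1.5 times under median-of-ratios scaling, DESeq2, limma-voom, both other filters, both sex covariates and the fit of the 8 libraries alone, at 949 to 1483. Leaving out 1 library gave 606 to 2083 genes, 407 to 1206 higher and 193 to 877 lower; the highest values were without mutant 3. Leaving out the 3 sex-discordant libraries, 116 passed (72 higher, 44 lower), in a fit with fewer samples whose mutants are mutants 3 and 4. Without wild type replicate 2 and mutant 3 together the lower genes numbered 634, and at an adjusted p of 0.1 the counts were 1813, 1055 and 758. The cause was not tested. Hand1, which did not pass, had a log2 fold change of 3.58, and of -0.084 to 4.34 with 1 library left out, the negative value being without mutant 3. The count for the enriched diet, 4087, stayed between 3556 and 5454, and no gene passed for the difference between diets in any fit run.

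Replicate numbers did not pair the libraries: mutant and wild type libraries of the same number had correlations of -0.094, 0.27, -0.053 and 0.11, and only wild type 2 correlated best with its own number. With the replicate block 1269 genes passed, 756 higher and 513 lower, and 1041 of the 1097 were among them; Hif1a passed as lower (adjusted p = 0.0494). Precision was limited below 1 CPM, where the median standard error was 0.39.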

Other observations

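Some lists outside the account above had few members past the threshold, to be read against the 7.56% of all genes that passed. The imprinted, heat shock, planar polarity, DNA methylation and p53 lists were near or below that share. Of 20 genes of retinoic acid metabolism and response, Aldh1a1 (-2.72 ± 0.26), an enzyme that makes retinoic acid, fell from 3.03, 3.44, 2.03 and 3.76 CPM in wild types to 0.512, 0.615, 0.487 and 0.240 CPM in mutants. On the same list Stra6, a retinol transporter, fell (-0.43 ± 0.10) and Aldh1a3, another retinoic acid enzyme, rose (0.37 ± 0.11). Among 27 imprinted genes 2 rose: Igf2 (0.33 ± 0.10), a growth factor, and Ascl2, a transcription factor of trophoblast, from 0.384, 0.484, 0.0945 and 0.398 to 3.42, 5.94, 0.344 and 3.24 CPM (3.19 ± 0.60, adjusted p = 0.00323). Of 13 cytosolic heat shock genes 1 passed, Hspb1, a small heat shock protein, at 0.288, 0.145, 0.189 and 0.398 CPM in wild types and 1.13, 0.615, 0.802 and 0.880 CPM in mutants (1.65 ± 0.34). Of 17 NRF2 target genes the heme oxygenase Hmox1 rose (0.93 ± 0.14) and Srxn1, which repairs oxidised peroxiredoxins, fell (-0.49 ± 0.13). Fuz, a planar polarity effector needed to build cilia, was the 1 gene of 20 on its list to pass (0.59 ± 0.16). Of 13 genes of the DNA methylation machinery Tet1, which oxidises methylated cytosine, rose (0.69 ± 0.17). Of 20 genes of p53 and its targets Trp53inp1 fell (-0.44 ± 0.13) and none rose. The calls of Stra6, Aldh1a3, Igf2, Srxn1, Fuz, Tet1 and Trp53inp1 were lost in 3 to 7 of 8 fits without 1 library, at adjusted p up to 0.147.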
